A study of Mus musculus with 4 samples.

Results

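Mature dendritic cells (DCs) were examined among leukocytes sorted from mouse KPC tumours. The cells were selected on their own transcripts. A cell with 300 to 5000 detected genes and at most 6% mitochondrial unique molecular identifiers (UMIs, each standing for 1 captured transcript) was a member if it carried at least 1 UMI of Ccr7 and of Fscn1, at least 5 UMIs of H2-Aa and H2-Ab1 together and fewer than 5 UMIs of C1qa, C1qb and C1qc together. Cells with any UMI of Cd3e, Cd3d, Cd3g or Cd79a were left out. Of 23011 filtered cells, 235 met this rule (1.02%).

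KPC is a mouse pancreatic cancer line from a genetically engineered mouse. The tumours grew under the skin of young adult syngeneic male C57BL/6 mice, which all groups shared. Mice were left untreated, or received the STING agonist ADU-S100 (a cyclic dinucleotide given once into the tumour), the agonistic antibody 4H8 against the lymphotoxin-β receptor (the LTβR agonist, given repeatedly into the peritoneum), or both (combination). Tumours were taken days after the last antibody dose and longer after the single STING agonist dose, so that early responses were not sampled. Several tumours per group were pooled before live CD45+ cells were sorted. Each group was thus 1 library with no value per mouse, and how far such pools vary is not known. The study describes more than 1 such experiment, and which of them these libraries came from is not given in the sources used here. Every interval below is an exact 95% interval that covers counting error only, and no test or p-value could be given.

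A DC that has taken up antigen and received a danger signal stops sampling its surroundings, raises MHC class II and costimulatory molecules at its surface and gains the chemokine receptor CCR7, which guides it along CCL19 and CCL21 towards T cell zones. Fascin (Fscn1) bundles actin and shapes the long processes of such cells. In tumours these cells are known for chemokines that attract T cells (CCL17, CCL22, CCL5), for interleukin-12 and for inhibitory ligands such as PD-L1 (Cd274). The receptor LTβR signals through the non-canonical NF-κB pathway with its subunit RelB, and STING signals towards type I interferon and interferon-stimulated genes.

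The stretches of 150 bases before the start of 3 MHC class II genes and of Isg15 are shown because these 2 gene groups are described at length below. They were taken from the RefSeq promoter table for GRCm38.p6, are written 5′ to 3′ on the strand of the gene and carry the searched motif in capitals. For the class II genes this was ATTGG, the core of the Y box, or its reverse complement CCAAT. For Isg15 it was the core of the interferon-stimulated response element, written as GAAA, NN and GAAA without a gap, where N is any base, and searched on both strands. The stretches lie on the minus strand at chr17:34287824-34287973 (H2-Aa), on the plus strand at chr17:34305717-34305866 (H2-Eb1), on the plus strand at chr17:34145099-34145248 (H2-DMb2) and on the minus strand at chr4:156200819-156200968 (Isg15).
H2-Aa: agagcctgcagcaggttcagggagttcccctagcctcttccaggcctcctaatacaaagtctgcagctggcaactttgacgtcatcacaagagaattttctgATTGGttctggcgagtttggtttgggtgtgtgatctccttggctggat
H2-Eb1: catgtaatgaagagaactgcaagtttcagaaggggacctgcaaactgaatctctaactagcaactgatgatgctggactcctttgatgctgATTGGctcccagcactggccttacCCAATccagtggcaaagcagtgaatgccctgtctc
H2-DMb2: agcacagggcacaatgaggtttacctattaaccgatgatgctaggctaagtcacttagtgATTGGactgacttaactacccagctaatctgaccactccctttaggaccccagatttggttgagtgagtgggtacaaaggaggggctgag
Isg15: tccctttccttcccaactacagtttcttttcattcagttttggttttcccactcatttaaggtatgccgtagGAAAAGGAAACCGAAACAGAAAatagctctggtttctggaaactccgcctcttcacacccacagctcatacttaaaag
In H2-Aa, ATTGG began 48 bases before the start, and in H2-DMb2 90 bases before it. H2-Eb1 held 2 matches, beginning 59 and 35 bases before the start. Isg15 held 3 overlapping matches, the first beginning 78 bases and the last 66 bases before the start. Neither motif overlapped the other in these stretches. Promoters were found for 9 of the 12 class II genes (10 promoters), and 6 of these 10 held ATTGG on either strand, against 24.5% of all 32851 promoters. Of 17 promoters of 16 interferon-stimulated genes, 8 held the GAAA, NN, GAAA motif, against 1.59% of all promoters. These matches describe the letters only.

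The libraries held 3955 to 7824 barcodes and, after filtering, 3748 to 7147 cells with median depths of 5750 to 7094 UMIs. Members were deeper than the average cell, with medians of 10073 UMIs in the untreated, 10399 in the STING agonist, 9023 in the LTβR agonist and 10375 in the combination library, and their summed UMIs were 1064853, 395887, 631880 and 440715 in this order. Between 33 and 61 barcodes recurred between any pair of libraries, and no member barcode did. Of 4 listed markers of the conventional DC lineage, Flt3 was detected in 90.2% to 92.5% of the members and Zbtb46 in 67.3% to 80.6%. The others were low, with Itgax at 15.2 to 49.9 CPM (UMIs scaled to a total of 1000000 per library) and Kmo at 9.50 to 53.0 CPM. Cells that met the other limits but had neither Ccr7 nor Fscn1 stood higher, at 201 to 290 and 62.4 to 104 CPM. Some defining markers of other leukocytes were at 0 UMIs in all members, among them Siglech (plasmacytoid DCs), Cd207 (Langerhans cells), Ly6g and Cxcr2 (neutrophils), Cd4 and Cd2 (T cells), Ncr1 and Klrb1c (natural killer cells) and Pax5 (B cells). The rule, which leaves out cells with Cd3 or Cd79a UMIs, limits T and B cell transcripts in advance. The 6 plasmacytoid DC markers summed to 208, 157, 160 and 109 CPM in untreated, STING agonist, LTβR agonist and combination members, with Tcf4 alone at 109 to 207 CPM. The 7 B cell markers summed to 14.1, 5.05, 17.4 and 34.0 CPM in the same order. The 9 macrophage markers summed to 419 CPM in untreated members and to 53.0, 180 and 47.6 CPM in the STING agonist, LTβR agonist and combination members. The 7 monocyte markers summed to 628 CPM in untreated members and to 189 to 312 CPM in the others. In the median cell the macrophage sum was 0 CPM in every library. The 6 neutrophil markers summed to 4.70, 558, 342 and 4.54 CPM in the order untreated, STING agonist, LTβR agonist and combination, of which S100a9 gave 0, 364, 226 and 0 CPM. The 7 T cell markers summed to 27.2, 93.5, 28.5 and 74.9 CPM, with Cd8a at 6.57, 68.2, 4.75 and 45.4 CPM. Most of this sum was Cd8a and Thy1, the latter at 16.9 to 25.3 CPM. The T cell receptor genes Trac and Trbc2 reached at most 6.81 and 2.27 CPM, and Lck 1.58 CPM. Members with UMIs of at least 2 markers of another class numbered 10 of 98 untreated, 3 of 36 STING agonist, 5 of 61 LTβR agonist and 5 of 40 combination cells, and the class II, interferon-stimulated, chemokine, costimulation and early response lists are also given without these cells. Fewer transcripts per cell and a different mix of member cells cannot be told apart in summed counts.

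Most members lay well above the limits that chose them. The median member carried 39 Ccr7 and 20 Fscn1 UMIs, and 14 members had 1 of the genes at exactly 1 UMI. Just outside the limits lay 216 cells with Ccr7 but no Fscn1, 28 with Fscn1 but no Ccr7 and 4081 with neither. At least 3 of the other markers Ccl22, Il4i1, Relb and Cacnb3 were detected in 91.9% of the members, in 64.3% of the 14 members at 1 UMI, in 25.5% of the cells with Ccr7 only, in 21.4% of those with Fscn1 only and in 0.196% of those with neither. Free RNA gives UMIs in cells that do not express a gene, and in cells with at least 5 C1q UMIs, at median depths of 10145 to 11982 UMIs, 1.53% to 5.04% carried a Ccr7 UMI and 0.782% to 1.45% a Fscn1 UMI. The class II limit kept out 68 cells that met every other condition, with 30 in the untreated, 8 in the STING agonist, 23 in the LTβR agonist and 7 in the combination library, and 50 of these 68 carried at least 3 of the 4 other markers.

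**Figure D1:**
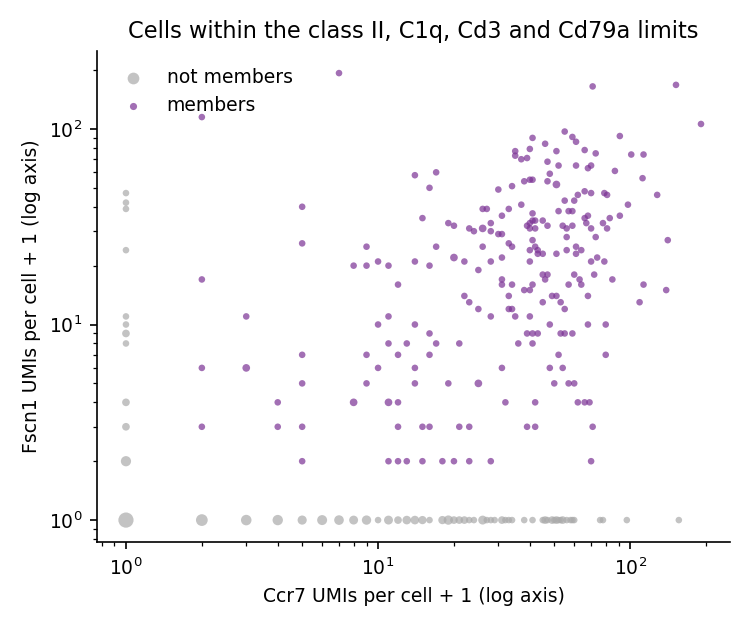
UMIs of Ccr7 (x axis) and Fscn1 (y axis) per cell, each plus 1 on a log axis, for the cells within the class II, C1q, Cd3 and Cd79a limits of all 4 libraries; a larger point stands for more cells at the same counts. The 235 members (purple) spread around medians of 39 and 20 UMIs, and 14 of them have either gene at exactly 1 UMI.

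Beyond the genes of the rule, members differed from the 4081 cells with neither gene in the same set of transcripts in every library. These differences follow from the selection and are given as a description. The 4081 cells were a mixed pool with monocyte and macrophage transcripts, such as Lyz2 (2424 to 3607 CPM), Ly6c2 (947 to 1316) and Csf1r (434 to 550). Of the leading genes, only Ccl22 and Il12b were also read separately in cells with a marker of other DCs. They were at 1.14 to 13.7 and 2.28 to 23.5 CPM in cells with Xcr1 or Clec9a. In cells with Cd209a they were at 3.49 to 47.7 and 0 CPM. Cacnb3, a calcium channel subunit, led with 676 to 777 CPM in members against 0.599 to 1.53 CPM in the 4081 cells. The endocytic receptor Ly75 (DEC-205) reached 554 to 851 CPM against 9.92 to 11.7 CPM. Ccl22 reached 585 to 1231 CPM against 3.17 to 9.16 CPM, the tyrosine- and phenylalanine-degrading oxidase Il4i1 422 to 622 CPM against 5.62 to 10.8 CPM, and the fatty acid carrier Fabp5 4248 to 5423 CPM against 219 to 308 CPM. Il12b, the p40 chain of interleukin-12 and interleukin-23, was at 280 to 468 CPM against 0.513 to 2.29 CPM. Serpinb6b, Mreg, Tbc1d4, Cd200, Strip2, Adcy6, Syn3, Mmp25, Ramp3, Adgrg6, Serpinb9, Nudt17, Cd63 and Rras2 completed the 20 leading genes, each at least 3.54 higher on the log2 scale in every library. In GRCm38, Ccr7 lies on chromosome 11 (99144196 to 99155077, minus strand), Fscn1 on chromosome 5 (142960343 to 142973185, plus strand), Cacnb3 on chromosome 15 (98630840 to 98644529, plus strand), and Ccl22 and Ccl17 lie near each other on chromosome 8 (94745590 to 94751699 and 94810453 to 94812036, both on the plus strand).

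Mature DCs made up a smaller share of leukocytes in each treated library than in the untreated one. They were 98 of 6783 untreated cells (1.44%, 1.17 to 1.76), 36 of 3748 STING agonist cells (0.961%, 0.674 to 1.33), 61 of 7147 LTβR agonist cells (0.854%, 0.653 to 1.10) and 40 of 5333 combination cells (0.750%, 0.536 to 1.02). The untreated interval lay above those of the LTβR agonist and the combination and overlapped that of the STING agonist. Relative to untreated, the STING agonist share was 0.665 times (0.383 to 1.13), the LTβR agonist share 0.591 times (0.372 to 0.932) and the combination share 0.519 times (0.305 to 0.868). The combination share was 0.781 times (0.404 to 1.51) that of the STING agonist and 0.879 times (0.490 to 1.56) that of the LTβR agonist, so that the 3 treated libraries could not be told apart at this depth. The ratios depended on the cells counted. Among cells within the class II, C1q, Cd3 and Cd79a limits, members were 6.41% (5.23 to 7.76), 5.22% (3.69 to 7.16), 4.08% (3.14 to 5.21) and 4.72% (3.39 to 6.37), and the ratios to untreated were then 0.815 (0.475 to 1.37) for the STING agonist, 0.637 (0.405 to 0.996) for the LTβR agonist and 0.736 (0.437 to 1.22) for the combination. The LTβR agonist interval still left out 1, and that of the combination included it. Without the class II limit the shares were 1.89%, 1.17%, 1.18% and 0.881%, and the ratios were 0.622 (0.381 to 0.998), 0.623 (0.419 to 0.922) and 0.467 (0.289 to 0.742), all with intervals below 1.

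**Figure D2:**
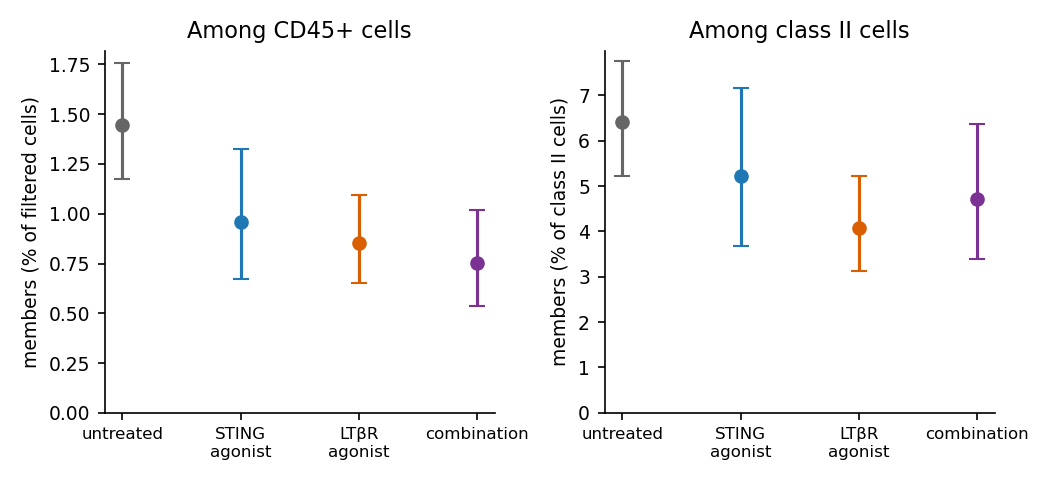
Share of mature DCs per library in percent, among all filtered CD45+ cells (left) and among cells within the class II, C1q, Cd3 and Cd79a limits (right); points are the 4 libraries and bars exact 95% intervals. Among all cells the untreated library stands highest at 1.44%, above the intervals of the LTβR agonist and the combination, whereas the intervals overlap more widely on the right.

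For expression, UMIs were summed over the members of a library and scaled to CPM, and libraries were compared as log2 ratios of CPM plus 10. A gene was counted where it differed at least 2-fold among the 5389 genes with a mean of at least 20 CPM. With the STING agonist 67 genes were at least 2-fold higher than in untreated members (1.24%) and 80 lower (1.48%). With the LTβR agonist 64 were higher (1.19%) and 116 lower (2.15%), and with the combination 85 were higher (1.58%) and 143 lower (2.65%). The median ratio over all these genes was 0.03, -0.01 and -0.01 in this order. The 3 comparisons share the untreated library.

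MHC class II genes were lower in LTβR agonist members than in the other 3 libraries. All 12 genes of the class II pathway passed the level filter. H2-Aa and H2-Ab1 were used in the rule, which keeps cells with at least 5 of their UMIs, and are left out of the counts. Of the other 10 genes, 5 were at least 2-fold lower with the LTβR agonist, against 2.15% of all genes, and all 10 lay below 0. None of the 10 differed 2-fold with the STING agonist or the combination, where 1.24% to 2.65% of all genes did in either direction. The median log2 ratio over the 10 was -0.97 in LTβR agonist, 0.08 in STING agonist and 0.35 in combination members. As a description, H2-Aa stood at 5577, 6040, 3091 and 5827 CPM and H2-Ab1 at 2937, 3779, 1076 and 3497 CPM in untreated, STING agonist, LTβR agonist and combination members.

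Cd74, the invariant chain that guides class II molecules through the cell, was at 10081 CPM in untreated, 13330 in STING agonist, 5254 in LTβR agonist and 12866 in combination members. The LTβR agonist library alone was low. Its log2 ratio to untreated was -0.94 (-1.02 to -0.86), while the combination was 0.35 above untreated (0.29 to 0.42) and 1.29 above the LTβR agonist (1.20 to 1.38). H2-Eb1, a class II β chain, followed with 4266, 4817, 2113 and 4756 CPM in the same order and a log2 ratio of -1.01 (-1.13 to -0.89) with the LTβR agonist. Ciita, the master transactivator of class II genes, was at 104, 152, 26.9 and 145 CPM and was detected in 31.6%, 47.2%, 11.5% and 42.5% of the members. Its log2 ratio was -1.63 (-2.40 to -0.85) with the LTβR agonist. The peptide-loading chaperone genes H2-DMa and H2-DMb2 stood at 185, 157, 77.5 and 247 CPM and at 245, 293, 85.5 and 315 CPM, and both were again lowest with the LTβR agonist. H2-DMb1 was at 115, 111, 36.4 and 72.6 CPM, so that here the combination lay between the LTβR agonist and untreated. The lysosomal reductase Ifi30 moved least, at 1979, 1937, 1665 and 2305 CPM.

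Single cells and other choices of members gave the following values. The summed level of all 12 class II genes, H2-Aa and H2-Ab1 included, in the median cell was 21315 CPM in untreated (quartiles 9608 and 42522), 31487 in STING agonist (8941 and 54479), 10766 in LTβR agonist (6625 and 15040) and 19622 CPM in combination members (9934 and 49238). Cells of every library overlapped at the low end, and the upper quartile of the LTβR agonist cells lay below the median of each other library. Because the limit on H2-Aa and H2-Ab1 cuts the low end of this sum, the values per cell are a description only. With the 68 cells outside the class II limit included, the median log2 ratio over the 10 genes was -0.998 in LTβR agonist and 0.49 in combination members, with 5 genes past 2-fold in the former. Without the members that carried markers of another class the LTβR agonist median was -0.89, with 2 instead of 5 genes past 2-fold and all 10 below 0.

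**Figure D3:**
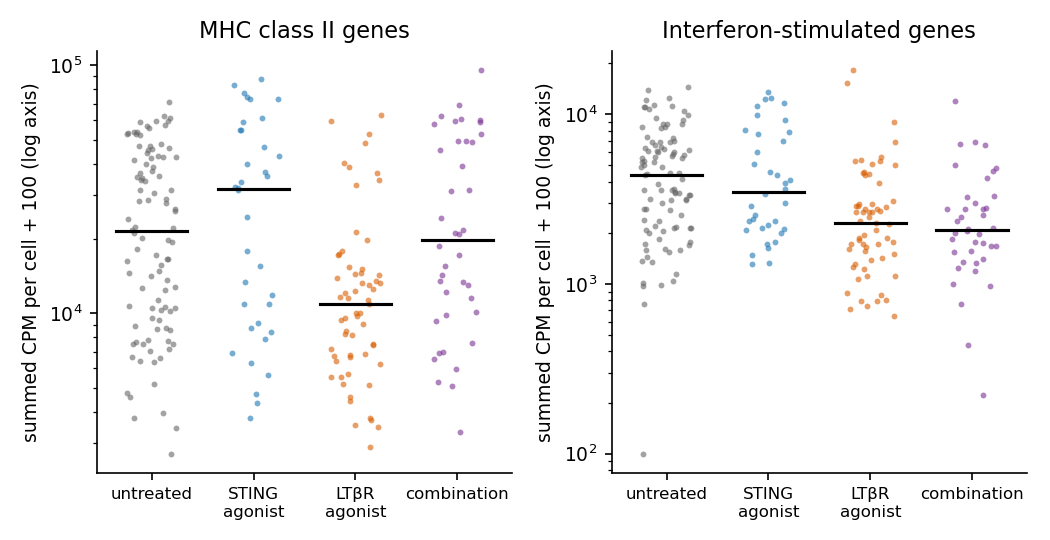
Summed CPM per member cell plus 100, on log axes, of the 12 MHC class II genes (left, with H2-Aa and H2-Ab1 of the rule included) and of the interferon-stimulated genes (right). Each point is a cell of the library named below it and each line the median. The class II median was 10766 CPM with the LTβR agonist against 19622 to 31487 CPM in the other libraries, and the interferon-stimulated median was lower with the LTβR agonist and the combination.

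In cells with a marker of other DCs, the class II genes lay closer to untreated in the LTβR agonist library than in the members. In 271 cells with Xcr1 or Clec9a, markers of cDC1, but with neither Ccr7 nor Fscn1, the median log2 ratio over the 10 class II genes was -0.41 in the LTβR agonist and -0.40 in the combination library, the latter further from 0 than the 0.35 of the members. In 290 cells with Cd209a, a marker of cDC2, it was -0.16 and 0.14. Both sets were picked on at least 1 UMI of these markers within a mixed pool, and their purity was not checked. Cd74 was at 19246, 21015, 16824 and 17083 CPM in the former and at 20632, 21206, 19844 and 20638 CPM in the latter cells, against 5254 CPM in the LTβR agonist members. Whether the cell types differ in their response could not be tested with 1 library per group. Of 15 MHC class I genes none differed 2-fold in any comparison, against 1.19% to 2.65% of all genes per direction in the comparisons with untreated, and H2-K1, a class I heavy chain, was at 2771, 3365, 2741 and 2659 CPM.

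Interferon-stimulated genes were lower in the LTβR agonist and combination members. Of 21 genes that passed the filter, 5 were at least 2-fold lower with the LTβR agonist (against 2.15% of all genes) and 6 with the combination (against 2.65%), and none was 2-fold higher in either. All 21 lay below 0 with the combination, at a median of -0.90, and 19 of 21 with the LTβR agonist, at a median of -0.73. With the STING agonist 12 lay above and 9 below 0, at a median of 0.05, with none 2-fold higher and 1 lower. Without the members with markers of another class, 4 of 21 were 2-fold higher and 1 lower with the STING agonist (median 0.22). In this set 122 of all 5341 genes were 2-fold higher with the STING agonist, more than in the main set. Of the 21 genes, 5 were then lower with the LTβR agonist (median -0.64) and 3 with the combination (median -0.77). The shares of all genes in the other directions are not given for this set.

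Isg15, a ubiquitin-like protein induced by interferon, was at 1087 CPM in untreated, 846 in STING agonist, 435 in LTβR agonist and 379 CPM in combination members. The 2 libraries with the LTβR agonist were thus the low ones, with log2 ratios to untreated of -1.30 (-1.55 to -1.05) and -1.50 (-1.80 to -1.20). Irf7, a transcription factor that amplifies type I interferon, was at 185, 179, 47.5 and 56.7 CPM. Ly6e was at 310, 389, 76.0 and 150 CPM, and without the members with markers of another class its STING agonist, LTβR agonist and combination ratios were 1.30, -1.34 and -0.42, against 0.32, -1.90 and -1.0 with them. Ifit2 was lowest in the combination, at 50.7, 68.2, 33.2 and 9.08 CPM. Rsad2 was at 35.7, 80.8, 66.5 and 18.2 CPM, but in the LTβR agonist library 1 cell held 50% of its UMIs. Ifnb1 itself had 0 UMIs in all members, which allows up to 2.82 CPM in untreated and 7.58 CPM in STING agonist members. The paper reports IFNβ in such tumours within hours of the STING agonist, a time not sampled here.

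The same genes were read in the cells with a marker of other DCs, without a test of a difference between cell types. In the Cd209a cells the median log2 ratio over the interferon-stimulated genes was -0.26 in the LTβR agonist and -0.66 in the combination library. In the Xcr1 or Clec9a cells it was 0.12 and 0.42. Isg15 in these cDC1 marker cells was at 720, 754, 854 and 876 CPM.

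**Figure D4:**
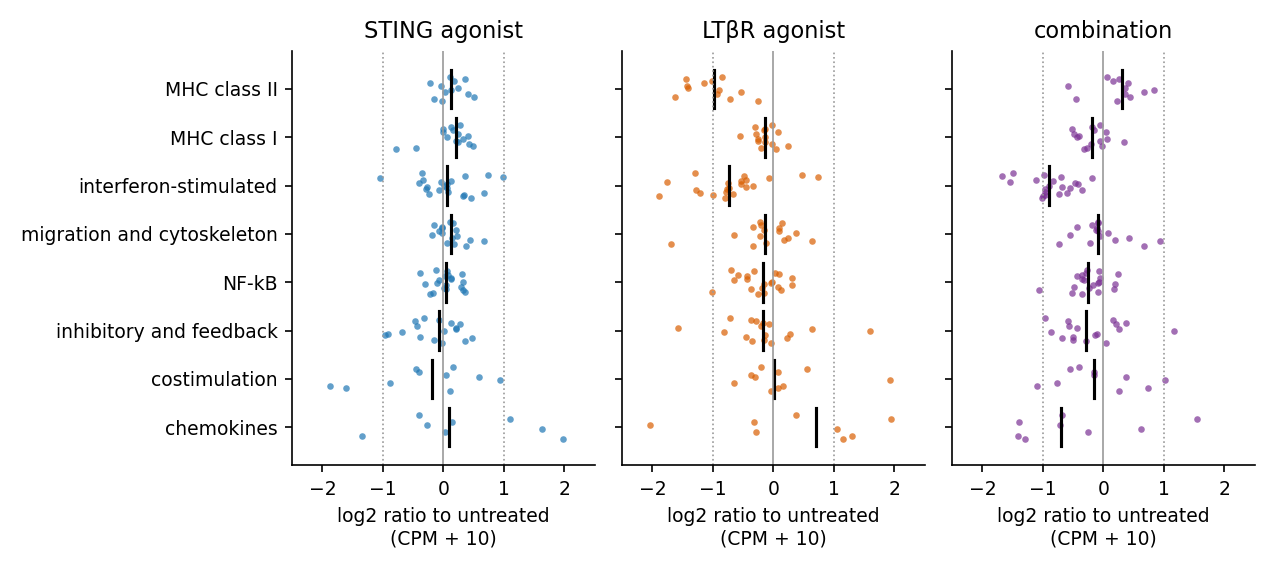
Log2 ratio to untreated (CPM plus 10) of single genes in mature DCs, grouped by gene list, for the STING agonist (left), the LTβR agonist (middle) and the combination (right); points are genes that passed the level filter, black lines list medians and dotted lines 2-fold. The points include H2-Aa, H2-Ab1, Ccr7 and Fscn1, which the rule used. The class II genes lie to the left only with the LTβR agonist, at a median of -0.97 with or without H2-Aa and H2-Ab1. The interferon-stimulated genes lie to the left with the LTβR agonist and the combination (medians -0.73 and -0.90). The medians of the migration and NF-kB lists lie between -0.26 and 0.13. Without Ccr7 and Fscn1 the migration median with the STING agonist was 0.097 instead of 0.13.

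Chemokines moved apart from each other. Ccl17, a ligand of CCR4 on T cells, was at 122 CPM in untreated, 273 in STING agonist, 497 in LTβR agonist and 374 CPM in combination members, detected in 23.5%, 36.1%, 47.5% and 45% of them. All 3 treated libraries were higher, with log2 ratios of 1.10 (0.59 to 1.60), 1.94 (1.55 to 2.33) and 1.54 (1.09 to 1.99), and single cells held up to 31.5% of the UMIs of a library. Ccl17 was also higher with the LTβR agonist in the Xcr1 or Clec9a cells, at 1.34, 9.70, 28.5 and 60.6 CPM, and in the Cd209a cells, at 18.7, 3.49, 78.7 and 122 CPM. Ccl22, the other CCR4 ligand and its neighbour in the genome, did not follow, with 947, 712, 1231 and 585 CPM. It was highest with the LTβR agonist and lowest in the combination, within 2-fold of untreated in each.

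Ccl5, which attracts T cells, was the most abundant chemokine named here at 4730, 5246, 3784 and 1795 CPM, and only the combination lay more than 2-fold below untreated, at -1.39 (-1.53 to -1.25). Its value with the 68 cells outside the class II limit was -1.01. Cxcl9, an interferon-γ-induced ligand of CXCR3, was at 226, 187, 47.5 and 134 CPM and was detected in 34.7%, 33.3%, 9.84% and 30.0% of the members. The LTβR agonist library was the low one, at -2.04 (-2.67 to -1.42), and 1 cell held 70.0% of its UMIs there. Cxcl16 was even across libraries, at 1080, 1101, 878 and 905 CPM. Of the other listed chemokines, Ccl19, Ccl21a and Cxcl13, which organise lymphoid tissue, had 0 UMIs in all members, below floors of 2.82 to 7.58 CPM. Of the 8 chemokines that passed the filter, the STING agonist library had 3 at least 2-fold higher and 1 lower, the LTβR agonist library 4 and 1 and the combination library 1 and 3, against 1.19% to 2.65% of all genes per direction. These counts rested partly on single cells, since 1 cell held 93.9% of the Cxcl10 and 98.3% of the Cxcl2 UMIs in STING agonist members and 91.2% of the Cxcl10 UMIs in LTβR agonist members. Without the members with markers of another class the counts were 2 and 1, 1 and 2, and 1 and 1. In this set 122 of all 5341 genes were 2-fold higher with the STING agonist. The LTβR agonist ratios of Cxcl10 and Ccl4 were then -1.60 and -0.54 instead of 1.05 and 1.29. Ccl17 then stayed at 1.06, 2.02 and 1.79.

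Among cytokines, Il1b was at 2911 CPM in untreated, 2973 in STING agonist, 1329 in LTβR agonist and 1395 CPM in combination members. Both libraries with the LTβR agonist were low, at -1.13 (-1.27 to -0.98) and -1.06 (-1.22 to -0.89), and the STING agonist was level with untreated. Il1rn, the antagonist of the interleukin-1 receptor, was at 301, 240, 149 and 120 CPM, also lower in both libraries with the LTβR agonist and lowest in the combination. Il12b was at 468, 280, 312 and 361 CPM and was detected in a similar part of each library, namely 28.6%, 33.3%, 29.5% and 32.5%. Its partner Il12a had 0 UMIs. Il15 and its presenting receptor Il15ra were even, at 82.6 to 98.1 and 198 to 259 CPM.

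**Figure D5:**
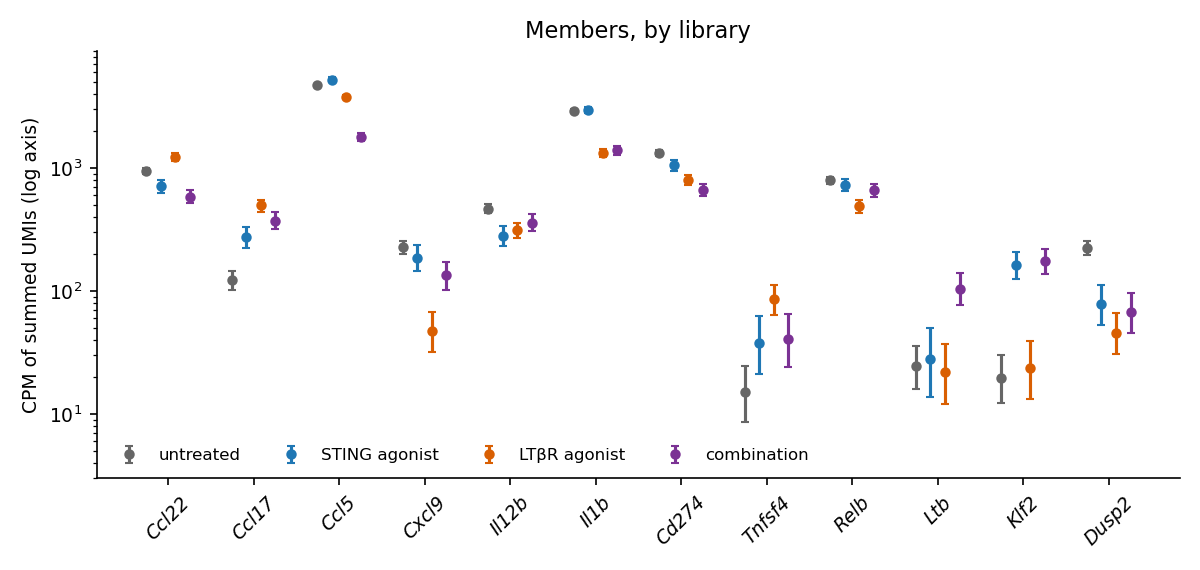
CPM of summed UMIs in the members of each library on a log axis, with exact Poisson 95% intervals, for chemokines (Ccl22, Ccl17, Ccl5, Cxcl9), cytokines (Il12b, Il1b), T cell ligands (Cd274, Tnfsf4), Relb, Ltb, Klf2 and Dusp2. Ccl17 is higher in all treated libraries, Il1b is lower in both libraries with the LTβR agonist, Ltb stands out in the combination and Klf2 in both libraries with the STING agonist.

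Of 10 costimulatory genes that passed the filter, 2 were 2-fold lower with the STING agonist (against 1.48% of all genes), 1 was higher with the LTβR agonist (against 1.19%), and 1 was higher and 1 lower with the combination (against 1.58% and 2.65%). Without the members with markers of another class, 1 was higher and 3 lower with the STING agonist. Among all 5341 genes of this set, 122 were higher with the STING agonist. Of the costimulatory genes, 1 was then higher with the LTβR agonist and 2 were lower with the combination. Cd80, a ligand of CD28, was at 388, 280, 571 and 261 CPM, highest with the LTβR agonist. Cd86 was at 769, 581, 815 and 692 CPM, Cd83 at 1234, 1266, 953 and 1112 CPM and Cd40, the receptor for help from T cells, at 257, 288, 223 and 193 CPM. Tnfsf4, the ligand of OX40 on T cells, was at 15.0, 37.9, 85.5 and 40.8 CPM, with a log2 ratio of 1.93 (1.11 to 2.71) for the LTβR agonist. Cd70, the ligand of CD27, was at 35.7, 2.53, 41.1 and 11.3 CPM. In STING agonist members Cd70 was detected in 1 of 36 cells and Slamf1 in 0 of 36, which allows a share of up to 8.33%, against 12 and 14 of 98 untreated cells.

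Of the inhibitory and feedback genes, Cd274 was lower in every treated library, at 1320, 1053, 799 and 667 CPM, with log2 ratios of -0.32 (-0.54 to -0.11), -0.72 (-0.92 to -0.52) and -0.97 (-1.22 to -0.74), all within 2-fold. It was detected in 95.1% to 100% of the members. Pdcd1lg2, the second ligand of PD-1, was even at 442, 422, 339 and 492 CPM. Socs3, a feedback inhibitor of cytokine signalling, was at 189, 220, 57.0 and 136 CPM, lowest with the LTβR agonist. Aldh1a2, which makes retinoic acid, was at 7.51, 7.58, 42.7 and 29.5 CPM and was detected in 21.3% of LTβR agonist against 6.12% of untreated members.

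Of 14 genes of migration and the cytoskeleton other than Ccr7 and Fscn1, none was 2-fold higher than untreated in any treated library and 1 was 2-fold lower (Rasgef1b with the LTβR agonist), against 1.19% to 2.65% of all genes per direction. Adam23 was at 378, 493, 298 and 608 CPM, so that the combination lay 1.01 above the LTβR agonist on the log2 scale. With Ccr7 and Fscn1 the list summed to 20923, 22158, 19888 and 19441 CPM. Ccr7 itself, used in the rule, was at 3960, 4292, 3406 and 3735 CPM and Fscn1 at 2454, 2736, 2700 and 2310 CPM. Anxa3 was above untreated in every treated library, at 233, 379, 369 and 452 CPM, without reaching 2-fold. Gpr183, a receptor for oxysterols that positions DCs in lymphoid tissue, was at 391, 341, 244 and 263 CPM.

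In the NF-κB pathway, none of 20 genes was 2-fold higher than untreated and 1 was 2-fold lower with the LTβR agonist (Bcl3) and 1 with the combination (Bcl2l1), against 1.19% to 2.65% of all genes per direction. The non-canonical subunits were Relb at 796, 730, 487 and 658 CPM and Nfkb2 at 360, 376, 285 and 340 CPM, and their upstream kinase Map3k14 (NIK) was at 592, 740, 584 and 560 CPM. None of these 3 was higher with the LTβR agonist than in untreated members. These are RNA levels, and the activity of the pathway was not measured. Of the receptors of the agonists, Ltbr was low at 21.6, 32.8, 23.7 and 13.6 CPM. In the cells with neither Ccr7 nor Fscn1 it was at 49.5 to 58.3 CPM. Tmem173, which encodes STING, was at 78.9, 111, 69.6 and 79.4 CPM, level with the 72.9 to 113 CPM of those cells. Ltb, a ligand of LTβR, was at 24.4, 27.8, 22.2 and 104 CPM and stood out in the combination, at a log2 ratio of 1.73 (0.92 to 2.52). It was detected in 35% of combination against 14.3% of untreated members, and 1 cell held 34.8% of the combination UMIs. The B cell markers also summed highest in combination members, at 34.0 CPM against 5.05 to 17.4 CPM in the other libraries. The part of B cell RNA in the Ltb values was not tested.

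Early response genes, which also react to tissue dissociation, moved with the libraries. The 13 genes of this list summed to 2959 CPM in untreated, 3703 in STING agonist, 1646 in LTβR agonist and 3140 CPM in combination members, an order like that of the class II genes. Fos was at 255, 356, 96.5 and 277 CPM and Dusp1, a phosphatase of the MAP kinase pathway, at 779, 914, 399 and 656 CPM. Of the 10 listed genes that passed the filter, 3 were 2-fold lower with the LTβR agonist, against 2.15% of all genes, and 3 were 2-fold higher with the combination, against 1.58%. Without the members with markers of another class, 1 was lower with the LTβR agonist. With the STING agonist 4 were then higher (1 with those members), against 122 of all 5341 genes in this set. With the combination 4 were higher, and its median went from 0.08 to 0.80. In the same cells the LTβR agonist ratio of Fos was -0.36 instead of -1.32. The part of dissociation in the class II values was not tested. Klf2, a transcription factor of this list, was the largest of them, at 19.7, 162, 23.7 and 175 CPM. Both libraries with the STING agonist were high, at log2 ratios of 2.53 (1.74 to 3.28) and 2.64 (1.88 to 3.36), although 1 cell held 59.4% of the UMIs in the STING agonist library. Klf2 was detected in 10.2%, 27.8%, 11.5% and 30.0% of the members. In the cells with neither Ccr7 nor Fscn1 it was at 78.1, 124, 131 and 214 CPM, above untreated also with the LTβR agonist. It was at 130, 258, 196 and 266 CPM in the Cd209a cells and at 161, 168, 158 and 237 CPM in the Xcr1 or Clec9a cells. Cd8a was also high in both libraries with the STING agonist, and the part of T cell RNA in the Klf2 values was not tested.

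Outside the lists, some genes differed from untreated in all treated libraries. Dusp2, another MAP kinase phosphatase, was at 224 CPM in untreated and at 78.3, 45.9 and 68.1 CPM in STING agonist, LTβR agonist and combination members. The untreated library was the high one, and the ratios of -1.41 (-2.07 to -0.77), -2.07 (-2.70 to -1.45) and -1.59 (-2.24 to -0.95) kept past 2-fold without the members with markers of another class, at -1.40, -1.98 and -1.47. Zeb2 looked alike at 119, 35.4, 34.8 and 34.0 CPM, but its ratios without those members were -0.50, -0.74 and -0.50. The phosphate carrier Slc20a1 was higher in all treated libraries, at 6.57, 32.8, 47.5 and 27.2 CPM. The glutathione transferases Gstt1 and Gstt3 were lower with the LTβR agonist and the combination, at 168, 90.9, 57.0 and 25 CPM and at 145, 114, 25.3 and 25 CPM. Ly6a (Sca-1) and the interferon-inducible Ifi205 were also lower in both of these libraries, at 445, 361, 63.3 and 152 CPM and at 193, 124, 57.0 and 47.6 CPM.

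The rule for the largest differences also named genes that stood out in fewer libraries. With the STING agonist, Fgd2, Pot1b, Pepd, Cdyl2 and Arc were higher and Pla2g7 and Bbx lower. Pot1b, a protein that protects chromosome ends, was at 240 CPM with the STING agonist against 61.7 to 87.3 CPM in the other libraries. With the LTβR agonist, Mylk, Akap5, Plet1 and Plek2 were higher and Fgr and Cacnb2 lower. Fgr, a Src family kinase, was at 25.3 CPM with the LTβR agonist against 78.3 to 124 CPM elsewhere. Plet1 was at 33.8, 17.7, 109 and 154 CPM, higher in both libraries with the LTβR agonist. With the combination, St8sia1, Man1a, Slc50a1, Glipr1, Pld4 and Wdfy4 were higher and Arid5b, Nrg1 and Edil3 lower. Wdfy4, which serves cross-presentation in cDC1, was at 67.6, 50.5, 17.4 and 206 CPM. Pld4, an endolysosomal nuclease, was at 16.9, 63.1, 11.1 and 68.1 CPM, higher in both libraries with the STING agonist.

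Members were not uniform in lineage genes. A cDC1 gene (Xcr1, Clec9a, Wdfy4, Naaa or Cadm1) without a cDC2 gene was detected in 55 of the 235 members, a cDC2 gene (Cd209a, Mgl2 or Clec10a) without a cDC1 gene in 31, both kinds in 28 and neither kind in 121. These are only some of the 12 cDC1 and 9 cDC2 genes listed, and 49 of the 59 cells with a cDC2 gene carried Mgl2. Wdfy4 and Naaa were at 17.4 to 206 and 6.33 to 24.4 CPM in members. In the 4081 cells with neither Ccr7 nor Fscn1 they were at 139 to 208 and 197 to 254 CPM. The split thus does not establish lineage. The cells with neither kind had a median of 8834 UMIs and those with both 13619, and the part of depth in this split was not tested. Irf8, a factor of the cDC1 lineage, was high throughout at 1248, 874, 1092 and 923 CPM, and Irf4 was low at 31.9, 45.5, 22.2 and 34.0 CPM. Il12b was detected in 49.1% of the cells with a cDC1 gene only against 22.6% of those with a cDC2 gene only. Mgl2, a lectin of cDC2, was at 46.0, 167, 42.7 and 136 CPM, higher in both libraries with the STING agonist.

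Il12b was also uneven among cells. It was detected in 71 members, of which 10 held 61.3% of its UMIs, with up to 128 UMIs in 1 cell. Cells with Il12b carried less Cd74, at 5654 CPM against 11989 CPM in the other members, less Cxcl9, at 26.0 against 227 CPM, and more Il15ra, at 291 against 195 CPM. Their median depth was 10749 UMIs against 9696 UMIs in the other members. Ccl17 was detected in 83 members, 27 of which also carried Il12b. Cells with Ccl17 had more Ccl22, at 1496 against 545 CPM in those without. Cell cycle genes were sparse, with Mki67 in 22 members and Mki67 together with Top2a in 3. These contrasts pool cells of 4 libraries and are descriptions of the cells sampled.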

How the data were processed

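Leukocytes were profiled with the 10x Genomics 5-prime chemistry. The authors made the deposited matrix of raw UMI counts per gene and barcode against the mouse genome mm10, with Cell Ranger 7.1.0 per the submitters' processing notes. It held 32285 genes and 24839 barcodes, and the number after the hyphen of each barcode gave the library. The study's limits on genes and mitochondrial UMIs were applied here. Doublets were kept, because no removal is stated, and no doublet caller was run. Cells with markers of another class were left out in an alternative.

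UMIs were summed over the members of each library and scaled to CPM with Python 3.11.15, numpy 2.4.6 and scipy 1.17.1. Log2 ratios used a pseudocount of 10 CPM and understate the change of low genes. Shares have Clopper-Pearson and sums Poisson exact intervals at 95%, and ratio intervals set each bound against the opposite bound of the other library, which makes them wide. UMIs of 1 cell are not independent, so the intervals cover counting error only. A count of 0 was given a floor of 3 counts. With 1 library per group no test was made. The ratio calculation was tested on simulated data.

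Named genes were those of the lists, the 6 highest and 6 lowest ratios per treatment with separate intervals, UMIs in at least 10 cells and no cell with over 20% of them, and the 20 genes leading the members. Members, lists and comparisons were chosen with earlier results of these data known. Values in the text chosen for contrast among members (Il12b, Ccl17) were picked after the data were seen. Alternatives changed the pseudocount, level filter, scaling, weighting of cells and membership, and the one without the class II limit was chosen after seeing the data. Promoters came from the RefSeq table for GRCm38.p6. Some genes of the lists are not reported here by name, although they count in the list values.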

Additional observations from a re-analysis of the deposited data

Results flagged for a closer look

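In the genes below, the log2 ratio of an agonist alone and that of the same agonist added to the other had opposite signs. Both counting intervals left out 0 and at least 1 ratio was past 2-fold. The share of all genes that met these conditions is not given, so the number of flags is not read as a result. Each difference between the ratios was not tested, since every group was 1 library.

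Adding the LTβR agonist went with lower H2-DMa in the absence of the STING agonist (-1.16) and higher H2-DMa in its presence (0.63), a difference of 1.78. Wdfy4 changed likewise from -1.50 to 1.84, a difference of 3.34, and in 1 library a single cell held 44.4% of its UMIs. Adding the STING agonist went with higher Ccl17 without the LTβR agonist (1.10) and a ratio of -0.40 with it, a difference of -1.50. For Ccl5 the ratios were 0.15 and -1.07, a difference of -1.22. For Rsad2 they were 0.99 and -1.44, a difference of -2.43, with up to 50% of a library's UMIs in 1 cell.

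The other flags rested on single cells. Cxcl10 went from 1.05 to -1.02 when the LTβR agonist was added, a difference of -2.07, with 93.9% of the STING agonist UMIs in 1 cell. Cxcl2 differed by -4.42 for either agonist, with up to 98.3% of a library's UMIs in 1 cell. The neutrophil genes S100a8 and S100a9 differed by -7.37 and -9.79 for either agonist, with up to 100% and 99.3%. Fn1 differed by 3.65 for the LTβR agonist, with up to 85.7%.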

How the results depend on the processing

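The counts of genes past 2-fold depended on the pseudocount and the level filter. In the order STING agonist higher and lower, LTβR agonist higher and lower, combination higher and lower, they were 151, 183, 130, 218, 150 and 243 with a pseudocount of 1 CPM and 13, 13, 8, 29, 11 and 27 with 50 CPM. With a mean of at least 100 CPM they were 6, 5, 11, 31, 10 and 20, and without a filter 155, 190, 117, 192, 166 and 264. Without members with markers of another class, 122 genes were higher with the STING agonist, and without the class II limit (chosen after seeing the data) 41 were higher with the LTβR agonist. All share ratios stayed within their main intervals under the alternatives. Of 120 named-gene ratios past 2-fold, 39 were under it without members with markers of another class, 64 with a pseudocount of 50 CPM, 24 with every cell weighted equally, 15 without the class II limit, 5 with at least 2 UMIs of Ccr7 and Fscn1 and 2 with median-of-ratios scaling.

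Some ratios changed sign. Without members with markers of another class, the STING agonist ratios were 0.35 for Ccl4, -1.69 for Cxcl2, 0.00745 for Fcgr1, 0.44 for Lyz2, 0.21 for Fn1 and -0.29 for S100a8. The LTβR agonist ratios were -1.60 for Cxcl10, -0.54 for Ccl4, 0.29 for Ly6c2 and 0.083 for Fn1, and the combination ratios 0.30 for Ccl4, 1.02 for Lyz2 and 0.18 for Ly6c2. With at least 2 UMIs of Ccr7 and Fscn1, Cxcl10 was -1.48 with the STING agonist. With every cell weighted equally, Fn1 was 0.092 with the combination. Without the class II limit, S100a8 was -0.088 with the STING agonist and -0.91 with the LTβR agonist. The cause was not tested. No paired analysis was possible because each group was 1 library. Depth limits the STING agonist and combination values most, with 36 and 40 members.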
